A study of Mus musculus with 9 samples.

Results

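The genes described here are 44 interferon-induced genes, chosen by name from the known targets of interferon signalling, among them 9 guanylate-binding proteins (GBPs) and immunity-related GTPases (IRGs). These genes and the other gene lists below were chosen with earlier results of these data known, so shares set beside those of all genes are descriptive. All 44 were found by their gene symbol among the 20635 symbols of the expression table, and all 44 were among the 13997 genes with at least 1 CPM (reads scaled to a common library total) in at least 3 of the 9 libraries. RNA-seq libraries were made from 10000 sorted cells each, from femur and tibia bone marrow of C57BL/6J mice aged 10 weeks. The cells were in the KSL CD34- gate for haematopoietic stem cells (c-Kit+, Sca-1+, lineage-negative, CD34-) and were collected as Syndecan-2+ cells, as Syndecan-2- cells, or as Parent cells, which were not divided by Syndecan-2, with 3 libraries of each. Syndecan-2 is a heparan sulphate proteoglycan of the cell surface. No treatment with interferon or infection is named in the labels, so the levels are those of unstimulated marrow as far as the labels go. The labels' protocol gives male mice and the description of the series gives both sexes. The replicates are not stated to come from separate animals, so that p-values measure the spread between these libraries, which may be technical.

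Interferons are secreted proteins that bind receptor pairs on the cell surface and, through JAK kinases and STAT factors, switch on a large set of genes against viruses and intracellular microbes. Type I interferons act through IFNAR and mainly through a complex with STAT2 and IRF9, which binds the interferon-stimulated response element (ISRE), whereas interferon gamma acts through IFNGR and the gamma-activated site (GAS). In mouse marrow, acute interferon drives quiescent haematopoietic stem cells into cycle, and stem cells are known to express some interferon-induced genes constitutively. GBPs and IRGs are large GTPases that act on the vacuoles of intracellular parasites and bacteria and are induced strongly by interferon gamma.

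The sorted populations followed their labels at the gene that defined them. Sdc2 had 5.23, 4.17 and 4.34 CPM in the Syndecan-2+ libraries, 0.477, 0.203 and 0.316 CPM in the Syndecan-2- libraries and 1.81, 1.999 and 1.43 CPM in the Parent libraries. Transcripts of Kit, which encodes the gated c-Kit, averaged 259 ± 17 CPM in Syndecan-2+, 164 ± 12.7 CPM in Syndecan-2- and 196 ± 20.7 CPM in Parent libraries (SD, n = 3 each). Cd34 transcripts were listed in every population of the CD34- gate, at 44.6 ± 6.36 CPM in Syndecan-2+, 203 ± 11.7 CPM in Syndecan-2- and 174 ± 4.34 CPM in Parent libraries. Markers of other marrow cells differed as well. Beside the counts that follow, 20.5% of all genes tested were higher and 9.51% lower in Syndecan-2+ than in Syndecan-2- cells. Shares of these short lists were not tested. The 14 plasma cell markers summed to 1254 to 1515 CPM in Syndecan-2+, 162 to 194 CPM in Syndecan-2- and 391 to 439 CPM in Parent libraries, with 10 of 11 tested markers higher in Syndecan-2+ cells, and Igha and Iglc1 were at 0 in every Syndecan-2- library. The 7 listed markers of plasmacytoid dendritic cells summed to 50.6 to 57.8 CPM in Syndecan-2+, 104 to 129 CPM in Syndecan-2- and 93.7 to 104 CPM in Parent libraries, with 4 of 5 tested markers lower in Syndecan-2+ cells and Siglech at 0 in every Syndecan-2+ library. The 8 listed megakaryocyte and platelet markers summed to 381 to 413 CPM in Syndecan-2+, 66.4 to 76 CPM in Syndecan-2- and 142 to 161 CPM in Parent libraries, with 6 of 6 tested higher in Syndecan-2+ cells. The 8 erythroid markers summed to 265 to 279.8 CPM in Syndecan-2+, 105 to 128 CPM in Syndecan-2- and 155 to 180.5 CPM in Parent libraries, with 4 of 5 tested higher and 1 lower. The 6 listed conventional dendritic cell markers, most of whose CPM was the Flt3 of progenitors, summed to 23.4 to 31.1 CPM in Syndecan-2+, 269 to 299 CPM in Syndecan-2- and 216 to 244 CPM in Parent libraries, with 2 of 5 tested higher and 3 lower. Neutrophil and monocyte markers, 9 listed, summed to 319 to 602 CPM in Syndecan-2+, 771 to 956 CPM in Syndecan-2- and 652 to 833 CPM in Parent libraries, with 1 of 7 tested higher and 4 lower. The 13 listed B, T and NK cell markers summed to 22.6 to 25.5 CPM in Syndecan-2+, 42.2 to 45.7 CPM in Syndecan-2- and 36 to 37.2 CPM in Parent libraries, with 5 of 7 tested lower. The 8 listed macrophage markers summed to 10.7 to 13.6 CPM in Syndecan-2+, 28.7 to 35.2 CPM in Syndecan-2- and 23.6 to 28.9 CPM in Parent libraries, with 2 of 4 tested higher and 2 lower. In bulk RNA, fewer cells of a type and less RNA per cell cannot be told apart, and the part of these cell types in the results below was not tested.

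Between Syndecan-2+ and Syndecan-2- cells, the interferon-induced genes moved in both directions. Of the 44 genes, 11 were higher in Syndecan-2+ cells, 9 were lower and 24 did not pass the test, which was limma on log2(CPM + 1) with Benjamini-Hochberg adjustment over all 13997 genes and a threshold of 0.05. The 20 called genes are 45.5% of the 44, against 30.0% of all genes tested. The higher calls are 25.0% of the members, against 20.5% of all genes, and the lower calls 20.5% of the members, against 9.51% of all genes. The median log2 fold change over the 44 genes was -0.0022, against 0.10 over all genes. The values of the 3 Syndecan-2+ libraries did not overlap those of the 3 Syndecan-2- libraries for 24 of the 44 genes (54.5%), against 42.5% of all genes.

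The GTPases and the other members held different counts of calls, a difference between sets that was not tested. Of the 9 GBP and IRG genes, 6 were higher in Syndecan-2+ cells (Gbp9, Iigp1, Gbp2, Gbp7, Gbp6 and Irgm2), 1 was lower (Gbp3) and 2 did not pass the test, with a median log2 fold change of 0.53. Of the other 35 members, 5 were higher (Ifitm1, Ifih1, Ifitm3, Isg20 and Ifit2), 8 were lower (Mx1, Ifi27, Oas2, Irf7, Oas3, Psmb8, Irf1 and Parp14) and 22 did not pass the test, with a median of -0.16. Within these, the 20 IFIT, OAS and ISG effector genes held 2 higher and 5 lower calls and a median of -0.22. Higher calls were 66.7% of the 9 GTPases, 14.3% of the 35 and 10.0% of the 20, against 20.5% of all genes. Lower calls were 11.1%, 22.9% and 25.0%, against 9.51% of all genes. Summed over the 9 GTPases, expression was 168.5 to 189.7 CPM in Syndecan-2+ libraries, 134.1 to 142.7 CPM in Syndecan-2- libraries and 140.9 to 154.6 CPM in Parent libraries, so that the Syndecan-2+ libraries stood apart. The summed CPM did not stand apart for the 16 listed related GTPases outside the members, described below, which include very large GTPases beside other IRGs and GBPs. Of these, 15 were tested, with 6 higher and 3 lower calls and a median log2 fold change of 0.39, against 0.10 over all genes. A sum is weighted towards the genes of highest CPM. Their sum was 585 to 718 CPM in Syndecan-2+, 701 to 868 CPM in Syndecan-2- and 688 to 850 CPM in Parent libraries, and the groups overlapped. Summed over the 20 effectors, expression was 213 to 236 CPM in Syndecan-2+, 230.3 to 265 CPM in Syndecan-2- and 232 to 273 CPM in Parent libraries, and the groups overlapped.

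The number of calls depended in part on scaling. Over all genes, 2874 were higher and 1331 lower in Syndecan-2+ cells with the deposited CPM, and 2021 were higher and 1956 lower after TMM rescaling, which shifted the median of all genes to -0.00082. The 9 GTPases had 6 higher and 1 lower call under TMM rescaling, quantile normalization and equal library sums, with medians of 0.43, 0.40 and 0.47. The other 35 members had 4 higher and 12 lower calls after TMM rescaling.

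**Figure D1:**
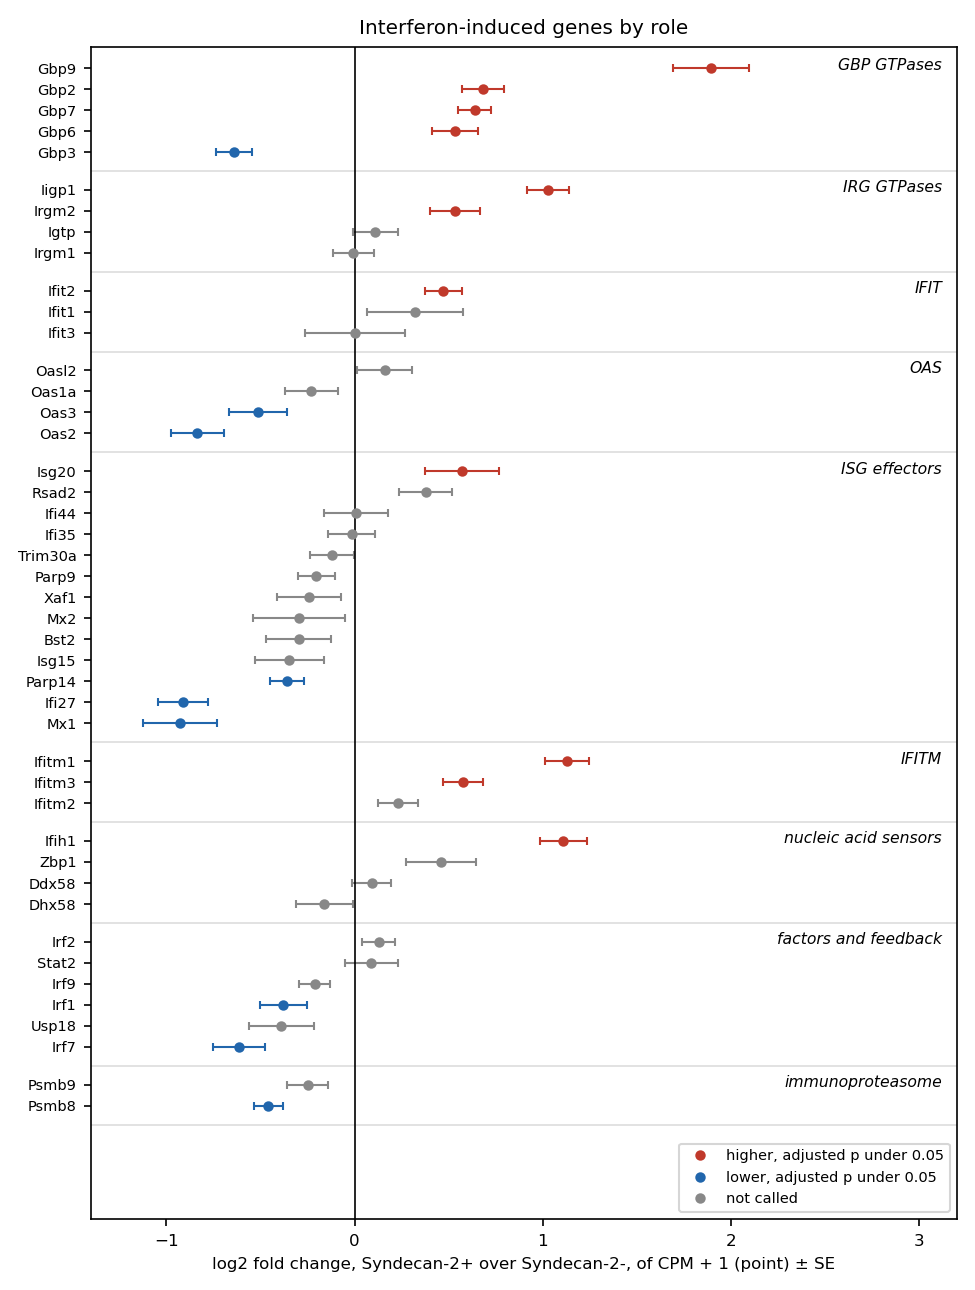
Log2 fold change of each of the 44 genes, Syndecan-2+ over Syndecan-2-, with its standard error, by role; red points were called higher, blue points lower and grey points were not called. The GBP and IRG genes lie mostly to the right, with Gbp9 at 1.89 and Gbp3 at -0.64, and the OAS genes, ISG effectors and regulators lie mostly to the left, down to Mx1 at -0.93.

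Promoter sequence is shown for 6 members that moved in different ways but carry the same kind of interferon motif. RefSeq promoter windows of GRCm38.p6, from 250 bases before to 50 bases after an annotated start, were matched by symbol for 32 of the 44 genes. They were searched for the ISRE core GAAANNGAA on both strands and for the GAS TTCNNNGAA, which is its own reverse complement. Bases -140 to -21 before the RefSeq start are printed 5′ to 3′ on the gene's strand, with every match in capitals. Overlapping matches run together, as in the run of both ISRE matches before Oas3, and the reverse complement of the ISRE core reads TTCNNTTTC. The first 3 genes were higher in Syndecan-2+ cells, Gbp3 and Oas3 were lower, and Isg15 did not pass the test. The regions are chr3:142530196-142530315, plus strand, for Gbp7, chr11:58214837-58214956, plus strand, for Irgm2, and chr2:62646276-62646395, minus strand, for Ifih1. Those of the others are chr3:142559904-142560023, plus strand, for Gbp3, chr5:120777680-120777799, minus strand, for Oas3, and chr4:156200839-156200958, minus strand, for Isg15.
Gbp7: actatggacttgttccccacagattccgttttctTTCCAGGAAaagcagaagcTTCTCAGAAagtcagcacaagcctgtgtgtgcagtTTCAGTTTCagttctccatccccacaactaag
Irgm2: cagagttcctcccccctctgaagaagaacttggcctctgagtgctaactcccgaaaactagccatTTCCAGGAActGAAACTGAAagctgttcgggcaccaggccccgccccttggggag
Ifih1: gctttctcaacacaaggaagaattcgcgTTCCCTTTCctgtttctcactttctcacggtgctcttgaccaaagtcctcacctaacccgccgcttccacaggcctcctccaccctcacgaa
Gbp3: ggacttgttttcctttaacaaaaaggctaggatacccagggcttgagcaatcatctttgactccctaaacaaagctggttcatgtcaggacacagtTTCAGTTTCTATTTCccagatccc
Oas3: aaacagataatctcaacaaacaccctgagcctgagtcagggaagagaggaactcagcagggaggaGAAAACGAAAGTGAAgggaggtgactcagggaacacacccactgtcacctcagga
Isg15: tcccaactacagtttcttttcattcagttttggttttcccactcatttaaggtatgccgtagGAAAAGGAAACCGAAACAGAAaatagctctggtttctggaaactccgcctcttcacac

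An ISRE core was present in a window of 21 of the 32 matched members (65.6%) and in 8.56% of all 32851 windows, or 9.76% of the 27025 genes with a window. A GAS was present for 12 of the 32 (37.5%) and in 8.30% of all windows, or 9.55% of genes. Matches were not limited to the genes that were higher: an ISRE core lay in a window of 5 of the 8 higher, 2 of the 5 lower and 14 of the 19 uncalled members. These counts leave out the 12 members without a matched window. Of those, Gbp9, Iigp1 and Gbp6 were higher, Mx1, Oas2, Ifi27 and Parp14 were lower, and Mx2, Parp9, Usp18, Dhx58 and Zbp1 were not called. For Ifitm3 and Ddx58 the ISRE matches lay after the start. A GAS lay in a window of 5 of the 8 higher (62.5%), 2 of the 5 lower (40.0%) and 5 of the 19 uncalled members (26.3%), a difference that was not tested. All 6 matched GBP and IRG genes had an ISRE core, Gbp3 among them, and Gbp7, Irgm2 and Igtp had a GAS as well. In Gbp7 the ISRE core began at -52 and the GAS matches at -106 and -87, and in Irgm2 they began at -64 and -75. Ifitm1, Irf7, Irf9, Oasl2, Xaf1 and Psmb9 had neither motif in their windows. For Ifitm1, Irf9 and Psmb9 the windows lay inside the span of the gene in the deposited coordinates, so sequence upstream of that span was not searched. A match describes letters in a window and not a bound site.

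**Figure D2:**
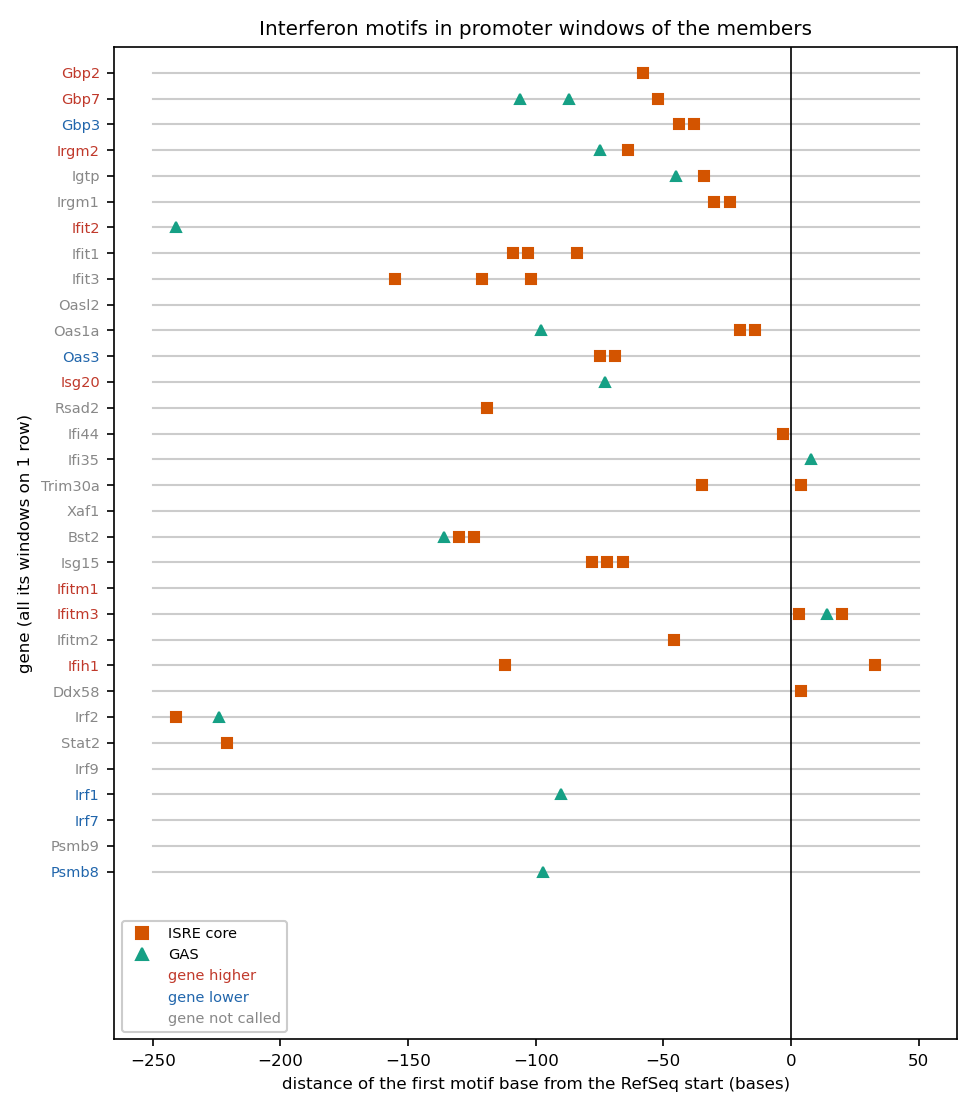
Positions of ISRE core matches (orange squares) and GAS matches (green triangles) in the promoter windows of 32 members, as the distance of the first motif base from the RefSeq start in bases; gene names are red where higher in Syndecan-2+ cells, blue where lower and grey where not called. Most ISRE cores lie within 160 bases before the start, before genes of all 3 colours.

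Among the guanylate-binding proteins, 4 of 5 were higher in Syndecan-2+ cells (80.0%, against 20.5% of all genes). Shares of the small role groups, here and below, were not tested. Gbp9, a mouse GBP of the cluster on chromosome 5, had 9.05, 8.48 and 7.49 CPM in the Syndecan-2+ libraries, 1.14, 1.06 and 2.57 CPM in the Syndecan-2- libraries and 3.21, 3.22 and 3.96 CPM in the Parent libraries. Its 3 Syndecan-2+ values lay far above the rest, and its log2 fold change over Syndecan-2- cells, 1.89 ± 0.20 (SE; adjusted p = 1.3e-06), was the largest of the 44 genes. Each of its 4 listed transcripts was higher on average in the Syndecan-2+ libraries. The one with the highest mean there was Gbp9-002, annotated as a retained intron, at 3.35 ± 0.575 CPM in Syndecan-2+ and 0.561 ± 0.972 CPM in Syndecan-2- libraries. The protein-coding Gbp9-201 averaged 2.73 ± 0.465 CPM in Syndecan-2+ and 0.856 ± 0.0351 CPM in Syndecan-2- libraries. Gbp9 overlaps Gbp4 and Gbp8 in the annotation, so reads could be divided between them.

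Gbp7, the GBP with the highest CPM of the 5, had 54.7, 48.6 and 53 CPM in the Syndecan-2+ libraries, 30.8, 34 and 34.6 CPM in the Syndecan-2- libraries and 38.9, 37.1 and 44.8 CPM in the Parent libraries. All 3 Syndecan-2+ values exceeded all 6 others, and the log2 fold change was 0.64 ± 0.09 (SE; adjusted p = 1.9e-05). Gbp2, a well-studied interferon gamma target that coats parasite vacuoles, had 19.3, 16.7 and 18.1 CPM in the Syndecan-2+ libraries, 10.3, 11.3 and 11 CPM in the Syndecan-2- libraries and 14.3, 12.4 and 11.4 CPM in the Parent libraries. Its log2 fold change was 0.68 ± 0.11 (SE; adjusted p = 1.3e-04), again without overlap between the sorted populations. Gbp6 had 15.1, 14.1 and 15.9 CPM in the Syndecan-2+ libraries, 8.64, 10.9 and 10.8 CPM in the Syndecan-2- libraries and 9.56, 11.7 and 11.7 CPM in the Parent libraries, with no overlap between the sorted populations and a log2 fold change of 0.53 ± 0.12 (SE; adjusted p = 0.003); it overlaps Gbp10 in the annotation.

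Gbp3 moved the opposite way. It had 15.6, 17 and 17.6 CPM in the Syndecan-2+ libraries, 26.7, 23.9 and 29.4 CPM in the Syndecan-2- libraries and 22.7, 21.1 and 21.8 CPM in the Parent libraries, so that every Syndecan-2+ value was below every Syndecan-2- value, and the log2 fold change was -0.64 ± 0.10 (SE; adjusted p = 5.9e-05). The Parent values lay between the sorted populations. Of its 4 listed transcripts, 1 had the largest difference. Gbp3-002 averaged 5.83 ± 2.01 CPM in Syndecan-2+ and 15.9 ± 3.02 CPM in Syndecan-2- libraries, whereas Gbp3-003 averaged 8.13 ± 1.16 CPM in Syndecan-2+ and 7.1 ± 1.67 CPM in Syndecan-2- libraries. Such a split between transcripts of 1 gene rests on how the deposited values assigned shared reads. In the GRCm38 coordinates of the deposited table, Gbp3 (chr3:142560052-142573209) lies between Gbp7 (chr3:142530342-142550149) and Gbp2 (chr3:142620602-142638008) on the plus strand, so that neighbours of 1 cluster moved in opposite directions.

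Among the IRG GTPases, 2 of 4 were higher in Syndecan-2+ cells, against 20.5% of all genes, a small count that was not tested as a group. Iigp1 (Irga6), an effector that loads onto parasite vacuoles, had 18.3, 17.5 and 18.1 CPM in the Syndecan-2+ libraries, 8.99, 7.57 and 8.48 CPM in the Syndecan-2- libraries and 11.6, 9.89 and 11 CPM in the Parent libraries. Its replicates were close, its groups did not overlap, and its log2 fold change was 1.03 ± 0.11 (SE; adjusted p = 1.6e-06). Irgm2, of the regulatory IRGs that hold effector IRGs inactive on the cell's own membranes, had 15.2, 11.9 and 14.5 CPM in the Syndecan-2+ libraries, 8.28, 9.22 and 10.3 CPM in the Syndecan-2- libraries and 11.8, 9.02 and 10.7 CPM in the Parent libraries. The sorted populations did not overlap and the log2 fold change was 0.53 ± 0.13 (SE; adjusted p = 0.0054), a call that was lost without the libraries numbered 1 of every population (adjusted p = 0.10). Irgm1, another regulatory IRG, had 23.4, 22.9 and 30.4 CPM in the Syndecan-2+ libraries, 28.2, 25.6 and 22.9 CPM in the Syndecan-2- libraries and 27.2, 25.3 and 27.3 CPM in the Parent libraries, which overlapped throughout, with a log2 fold change of -0.01 ± 0.11 (SE; adjusted p = 0.97). Igtp (Irgm3) averaged 12.9 ± 1.61 CPM in Syndecan-2+ and 11.8 ± 0.702 CPM in Syndecan-2- libraries, with overlap and an adjusted p of 0.53; its locus overlaps that of Irgm2 in the annotation.

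**Figure D3:**
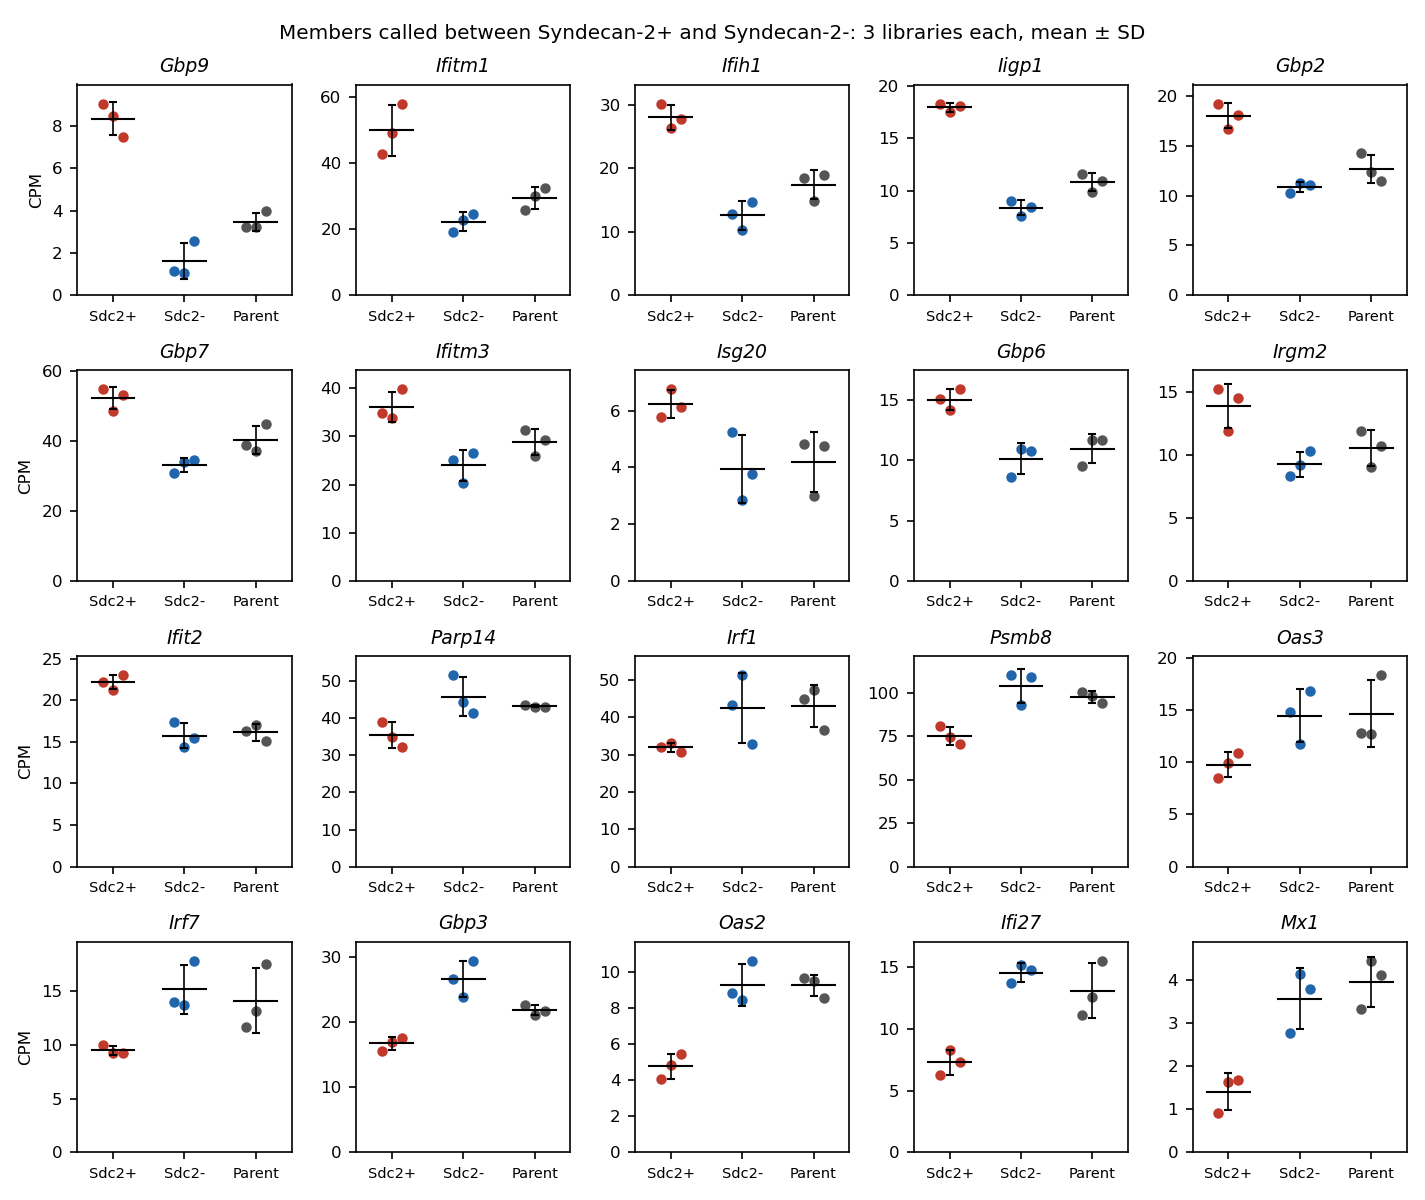
CPM per library of the 20 members called between the sorted populations, in order of log2 fold change, in Syndecan-2+ (red), Syndecan-2- (blue) and Parent (grey) libraries; points are the 3 libraries, lines the mean and bars the SD. Syndecan-2+ and Syndecan-2- values overlap for Irf1 alone among the 20.

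The IFITM proteins are small membrane proteins that block the fusion of enveloped viruses, and their genes lie together on chromosome 7. Ifitm1 had 42.7, 49.2 and 58.1 CPM in the Syndecan-2+ libraries, 19.2, 22.9 and 24.7 CPM in the Syndecan-2- libraries and 25.9, 30.1 and 32.5 CPM in the Parent libraries. The lowest Syndecan-2+ value exceeded the highest of the other 6, and the log2 fold change was 1.13 ± 0.12 (SE; adjusted p = 8.7e-07). Ifitm3, which restricts viruses in endosomes, had 34.9, 33.8 and 39.8 CPM in the Syndecan-2+ libraries, 25.2, 20.3 and 26.5 CPM in the Syndecan-2- libraries and 31.4, 26 and 29.2 CPM in the Parent libraries, without overlap between the sorted populations and with a log2 fold change of 0.58 ± 0.11 (SE; adjusted p = 4.1e-04). Ifitm2 had 47.1, 39.3 and 49.9 CPM in the Syndecan-2+ libraries, 41, 32.8 and 42 CPM in the Syndecan-2- libraries and 45.4, 39.6 and 39.4 CPM in the Parent libraries. These values overlapped, and its log2 fold change of 0.23 ± 0.10 did not pass the test (adjusted p = 0.11), although it did with replicate number as a block (adjusted p = 0.02).

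Of the 4 members grouped as sensors of foreign nucleic acid, Ifih1 alone was called, as higher (25.0%, against 20.5% of all genes). Ifih1 encodes MDA5, a sensor of long double-stranded RNA, and had 30.2, 26.3 and 27.7 CPM in the Syndecan-2+ libraries, 12.8, 10.2 and 14.7 CPM in the Syndecan-2- libraries and 18.5, 14.8 and 19 CPM in the Parent libraries. The Syndecan-2+ values stood apart from both other populations, and the log2 fold change over Syndecan-2- cells was 1.11 ± 0.13 (SE; adjusted p = 2.5e-06). Ddx58, which encodes the related sensor RIG-I, had 25.5, 25.9 and 25.5 CPM in the Syndecan-2+ libraries, 22.7, 22.5 and 27.1 CPM in the Syndecan-2- libraries and 22.7, 24.4 and 29.8 CPM in the Parent libraries. Its populations overlapped, and its log2 fold change was 0.09 ± 0.10 (SE; adjusted p = 0.56). Dhx58, for LGP2, a regulator of both, averaged 10.6 ± 1.32 CPM in Syndecan-2+ and 12.1 ± 2.46 CPM in Syndecan-2- libraries (adjusted p = 0.47). Zbp1, a sensor of Z-form nucleic acid that can start necroptosis, averaged 3.95 ± 1.02 CPM in Syndecan-2+ and 2.57 ± 0.432 CPM in Syndecan-2- libraries; its groups did not overlap, and its adjusted p was 0.076, or 0.047 with the replicate block.

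The IFIT family includes proteins that bind viral RNA lacking host cap marks. Of the 3 members, 1 was called, as higher (33.3%, against 20.5% of all genes). Ifit2 had 22.2, 21.3 and 23 CPM in the Syndecan-2+ libraries, 17.4, 14.4 and 15.4 CPM in the Syndecan-2- libraries and 16.3, 17.1 and 15.1 CPM in the Parent libraries, without overlap between Syndecan-2+ and Syndecan-2- libraries, and its log2 fold change was 0.47 ± 0.10 (SE; adjusted p = 0.0014). Ifit1 and Ifit3, its neighbours on chromosome 19, were not called. Ifit1 averaged 4.17 ± 1.2 CPM in Syndecan-2+ and 3.17 ± 1.19 CPM in Syndecan-2- libraries (adjusted p = 0.38). Ifit3, which shares sequence with its copy Ifit3b, averaged 1.31 ± 0.753 CPM in Syndecan-2+ and 1.3 ± 0.742 CPM in Syndecan-2- libraries, so that means were close and the spread between libraries wide.

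The 2'-5' oligoadenylate synthetases make the messenger that activates RNase L, and 2 of 4 members were lower in Syndecan-2+ cells. Of all genes, 9.51% were lower, and this small group was not tested as a group. Oas2 had 4.05, 4.85 and 5.44 CPM in the Syndecan-2+ libraries, 8.84, 8.43 and 10.6 CPM in the Syndecan-2- libraries and 9.68, 9.53 and 8.58 CPM in the Parent libraries. Its Syndecan-2+ values were below all 6 others, and its log2 fold change was -0.83 ± 0.14 (SE; adjusted p = 1.9e-04). At the level of transcripts, Oas2-001 averaged 1.49 ± 1.001 CPM in Syndecan-2+ and 5.75 ± 0.407 CPM in Syndecan-2- libraries, and Oas2-002 averaged 3.03 ± 1.91 CPM in Syndecan-2+ and 2.58 ± 1.22 CPM in Syndecan-2- libraries. Oas3 had 8.47, 9.95 and 10.9 CPM in the Syndecan-2+ libraries, 14.8, 11.8 and 16.8 CPM in the Syndecan-2- libraries and 12.8, 12.7 and 18.3 CPM in the Parent libraries, without overlap between the sorted populations, and a log2 fold change of -0.51 ± 0.15 (SE; adjusted p = 0.016). The call was lost without Syndecan-2+ replicate 1 (adjusted p = 0.078), without Syndecan-2- replicate 1 (0.051) and without Syndecan-2- replicate 3 (0.091). Oas1a averaged 9.41 ± 1.46 CPM in Syndecan-2+ and 11.2 ± 1.61 CPM in Syndecan-2- libraries (adjusted p = 0.24); reads could be divided with its near copy Oas1g. Oasl2, an OAS-like protein, had 26.1, 26.2 and 29.4 CPM in the Syndecan-2+ libraries, 21, 21.4 and 31.6 CPM in the Syndecan-2- libraries and 24.7, 21.8 and 31.8 CPM in the Parent libraries, with overlap and a log2 fold change of 0.16 ± 0.14 (SE; adjusted p = 0.45).

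Of 13 other antiviral effectors, 1 was higher (7.69%) and 3 were lower (23.1%), against 20.5% and 9.51% of all genes. Mx1, a dynamin-like GTPase that traps viral nucleoproteins, had 0.913, 1.65 and 1.67 CPM in the Syndecan-2+ libraries, 2.77, 4.15 and 3.81 CPM in the Syndecan-2- libraries and 3.33, 4.45 and 4.12 CPM in the Parent libraries. The 3 Syndecan-2+ values were the lowest of the 9, and the log2 fold change was -0.93 ± 0.20 (SE; adjusted p = 0.0014), the most negative of the 44 genes. Inbred strains such as C57BL/6 are known to carry a deletion in Mx1 that leaves no working protein. In the sorted populations most of its CPM was assigned to Mx1-003, annotated as a target of nonsense-mediated decay, which averaged 1.34 ± 0.483 CPM in Syndecan-2+ and 3.29 ± 0.616 CPM in Syndecan-2- libraries. Ifi27, a small interferon-induced membrane protein, had 6.23, 8.28 and 7.33 CPM in the Syndecan-2+ libraries, 13.7, 15.1 and 14.8 CPM in the Syndecan-2- libraries and 11.1, 12.6 and 15.5 CPM in the Parent libraries. Its highest Syndecan-2+ value was below the lowest of the other 6, and its log2 fold change was -0.91 ± 0.13 (SE; adjusted p = 4.8e-05). Parp14, an ADP-ribosyltransferase, had 39.1, 35 and 32.2 CPM in the Syndecan-2+ libraries, 51.6, 44.4 and 41.4 CPM in the Syndecan-2- libraries and 43.6, 43 and 43.1 CPM in the Parent libraries, and its log2 fold change was -0.36 ± 0.09 (SE; adjusted p = 0.0057).

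Isg20, an exonuclease for single-stranded RNA, had 5.77, 6.75 and 6.13 CPM in the Syndecan-2+ libraries, 5.24, 2.85 and 3.77 CPM in the Syndecan-2- libraries and 4.84, 2.99 and 4.76 CPM in the Parent libraries. It was the only higher call of the 13, with a log2 fold change of 0.57 ± 0.20 (SE; adjusted p = 0.036). That call was lost under 12 of 22 alternatives. Among them, the adjusted p was 0.072 after TMM rescaling, 0.058, 0.10 and 0.075 without Syndecan-2+ replicates 1, 2 and 3, and 0.17 and 0.084 without Syndecan-2- replicates 2 and 3. Rsad2, for viperin, averaged 8.69 ± 1.29 CPM in Syndecan-2+ and 6.41 ± 0.398 CPM in Syndecan-2- libraries without overlap, and its adjusted p was 0.051, or 0.03 with the replicate block. Isg15, a ubiquitin-like modifier, averaged 1.83 ± 0.327 CPM in Syndecan-2+ and 2.59 ± 0.405 CPM in Syndecan-2- libraries and Bst2, for the virus tether tetherin, 5.53 ± 0.464 CPM in Syndecan-2+ and 7.05 ± 0.973 CPM in Syndecan-2- libraries. Both had groups that did not overlap and log2 fold changes, -0.35 and -0.30, that did not pass the test (adjusted p = 0.18 and 0.22). The other 6, Mx2, Ifi35, Ifi44, Xaf1, Trim30a and Parp9, had overlapping groups and log2 fold changes between -0.29 for Mx2, a relative of Mx1, and 0.01 for Ifi44, and none of them passed the test.

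Of the 6 members that are transcription factors or feedback regulators of the response, none was higher and 2 were lower. Higher calls were 20.5% of all genes, and the lower calls were 33.3% of the 6, against 9.51% of all genes. No member of the 6 was higher in limma's test even at an unadjusted p under 0.05. Irf7, the master regulator of type I interferon production in plasmacytoid dendritic cells, had 9.93, 9.27 and 9.22 CPM in the Syndecan-2+ libraries, 13.9, 13.7 and 17.8 CPM in the Syndecan-2- libraries and 11.7, 13.1 and 17.5 CPM in the Parent libraries. The sorted populations did not overlap, and the log2 fold change was -0.61 ± 0.14 (SE; adjusted p = 0.0027). Irf1, a factor induced rapidly by interferon gamma, had 32.2, 33.1 and 30.7 CPM in the Syndecan-2+ libraries, 43.5, 51.4 and 32.8 CPM in the Syndecan-2- libraries and 45.1, 47.5 and 36.6 CPM in the Parent libraries. The Syndecan-2- values ranged widely and overlapped those of Syndecan-2+ cells, and the log2 fold change was -0.38 ± 0.13 (SE; adjusted p = 0.032). Its call was lost without Syndecan-2+ replicate 1 (adjusted p = 0.066) or 3 (0.091), and without Syndecan-2- replicate 1 (0.092) or 2 (0.19).

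Irf9, the DNA-binding partner of STAT2, averaged 30.4 ± 0.461 CPM in Syndecan-2+ and 35.4 ± 2.28 CPM in Syndecan-2- libraries without overlap. Its log2 fold change of -0.21 ± 0.08 had an adjusted p of 0.066, or 0.029 with the replicate block and 0.0051 after TMM rescaling. Stat2 averaged 15.8 ± 2.91 CPM in Syndecan-2+ and 14.6 ± 1.54 CPM in Syndecan-2- libraries (adjusted p = 0.68), and Irf2, which can oppose Irf1 at shared sites, averaged 38.9 ± 3.41 CPM in Syndecan-2+ and 35.5 ± 2.55 CPM in Syndecan-2- libraries (adjusted p = 0.30). Neither stood apart from the spread between libraries. Usp18, a feedback inhibitor that removes ISG15 and blocks the type I receptor, averaged 5.01 ± 0.695 CPM in Syndecan-2+ and 6.95 ± 1.58 CPM in Syndecan-2- libraries (adjusted p = 0.10), and passed the test without Syndecan-2- replicate 1 (adjusted p = 0.022).

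The immunoproteasome subunits replace constitutive catalytic subunits of the proteasome and shape peptides for MHC class I. Psmb8 (LMP7) had 80.8, 74.7 and 70.5 CPM in the Syndecan-2+ libraries, 110.1, 92.8 and 109 CPM in the Syndecan-2- libraries and 100.4, 98.2 and 94.1 CPM in the Parent libraries. Every Syndecan-2+ value was below every other, and the log2 fold change was -0.46 ± 0.08 (SE; adjusted p = 1.9e-04). Psmb9 (LMP2) averaged 19.3 ± 2.47 CPM in Syndecan-2+ and 23 ± 1.87 CPM in Syndecan-2- libraries, with overlap and an adjusted p of 0.10, or 0.036 with the replicate block. Its locus overlaps that of Tap1 in the annotation, and the use of strand in the authors' counting is not given in the sources used here.

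Levels can be compared between genes per length. On the scale of CPM per kilobase of transcript, Ifitm1 was the highest of the 44 genes in Syndecan-2+ libraries, at 87.2 ± 13, against 38.9 ± 5.19 in Syndecan-2- and 51.7 ± 5.85 in Parent libraries (SD, n = 3 each). Psmb8 was the highest in Parent libraries, at 67.9 ± 4.86 in Syndecan-2+, 94.2 ± 9.29 in Syndecan-2- and 87.1 ± 4.7 in Parent libraries. In Syndecan-2+ libraries Ifitm2 (69.4 ± 8.34) and Psmb8 lay within their SDs of each other, and below them came Ifitm3 (53.3 ± 4.7) and then Irf1 (23.5 ± 1.81). The lowest in Parent libraries were Mx2, Mx1, Ifit1 and Ifit3, each an interferon-induced antiviral gene, with Ifit3 at 0.87 ± 0.287 CPM per kilobase.

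**Figure D4:**
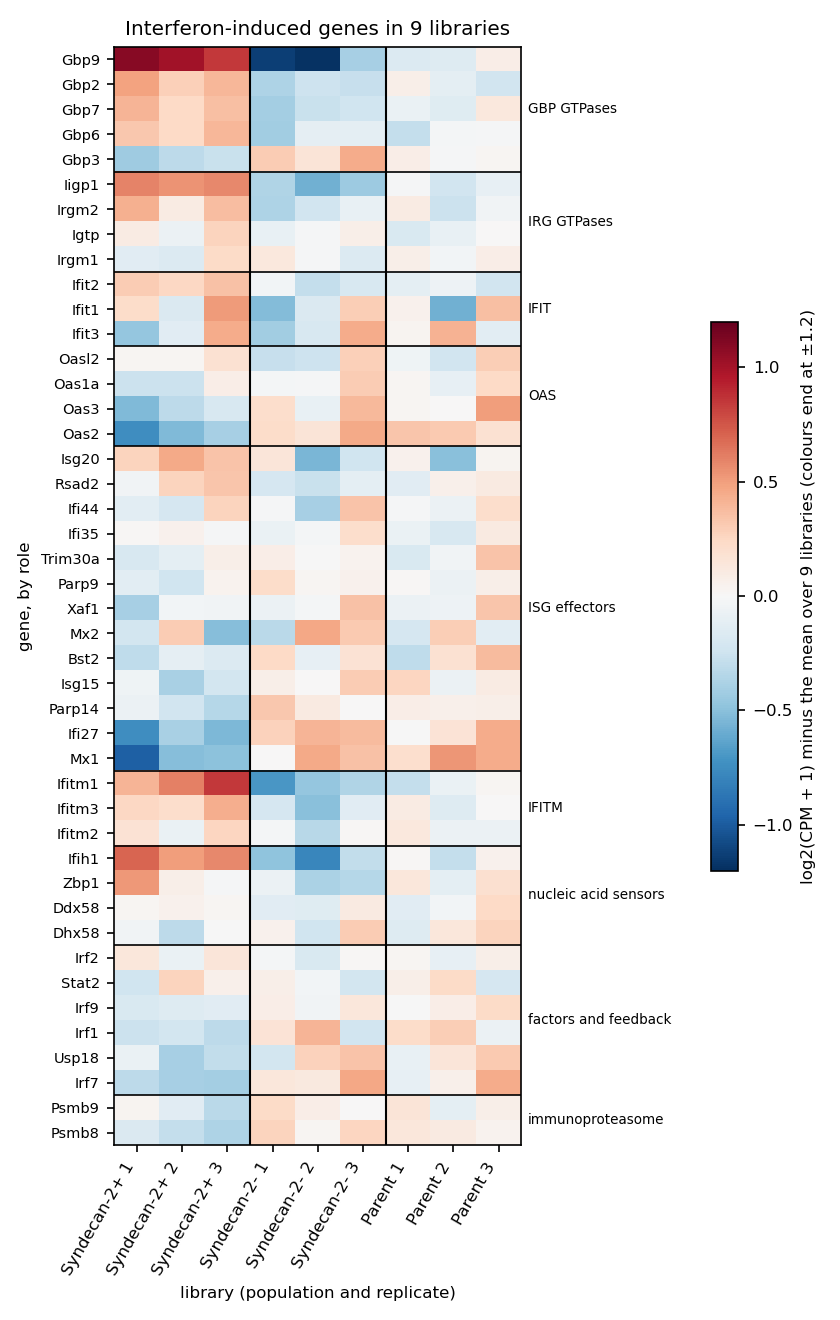
Log2(CPM + 1) of the 44 genes in each of the 9 libraries, minus the mean of the gene over the libraries (red above, blue below, colours ending at ±1.2); rows run by role and columns by population. The Syndecan-2+ columns are red for most GBP, IRG and IFITM rows and blue for Gbp3, Oas2, Ifi27, Mx1 and Irf7, and the third column of each population is the reddest for several OAS and ISG rows.

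Libraries with the same replicate number resembled each other in part of this set. Replicate 3 had the highest value in all 3 populations for 11 of the 44 members (25.0%), against 6.80% of all genes tested. These were Ifit1, Oas1a, Oas3, Oasl2, Rsad2, Ifi44, Ifitm1, Irf2, Irf9, Dhx58 and Igtp. Replicate 1 was highest in all 3 populations for 4 members (9.09%), against 9.87% of genes, and replicate 2 for 2 members (4.55%), against 3.42%. Oasl2 shows it: replicate 3 had 29.4 CPM in Syndecan-2+, 31.6 CPM in Syndecan-2- and 31.8 CPM in Parent cells, while the other 6 libraries had 21 to 26.2 CPM. The labels do not say what replicate 3 shares.

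Parent cells, which were not divided by Syndecan-2, were compared with each sorted population. Against Parent cells, 9 members were higher in Syndecan-2+ cells and 10 lower, which is 43.2% of the members, against 17.2% of all genes. The higher calls were 20.5% of the members, against 9.90% of all genes, and the lower calls 22.7%, against 7.31%. The higher ones were Gbp9, Ifitm1, Iigp1, Ifih1, Gbp2, Ifit2, Gbp6, Gbp7 and Ifitm3, and the lower ones Mx1, Oas2, Ifi27, Oas3, Irf7, Irf1, Psmb8, Gbp3, Parp14 and Irf9. For Gbp9 the log2 fold change over Parent cells was 1.07 ± 0.20 (adjusted p = 0.0011), and for Mx1 it was -1.05 ± 0.20 (adjusted p = 9.2e-04). Irgm2 was called higher as well with the replicate block (adjusted p = 0.034). Of these 19 calls, 8 held under each alternative in which they could be tested, those of Gbp9, Ifitm1, Iigp1, Ifih1, Mx1, Oas2, Ifi27 and Psmb8. The call of Ifitm3 (adjusted p = 0.0499) was lost under 14 of 23 alternatives, Irf9 under 10, Irf1 and Parp14 under 9 each, Gbp6 under 7, Oas3 under 5, Irf7 under 4, Gbp3 under 2, and Ifit2, Gbp2 and Gbp7 under 1 each. Both comparisons use the same Syndecan-2+ libraries and are not independent. Without replicate 3 of every population, 5 members were higher and 6 lower, and the lower count was 6 also without Syndecan-2+ replicate 1 or 3 or Parent replicate 3. Over all genes, 738 were higher and 633 lower without replicate 3 of every population, against 1386 and 1023 with all libraries. Values did not overlap between Syndecan-2+ and Parent libraries for 21 of the 44 genes (47.7%), against 32.0% of all genes.

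Between Syndecan-2- and Parent cells, 1 member was called, or 2.27%, against 2.66% of all genes. Gbp9 was lower, at a log2 fold change of -0.83 ± 0.20 (adjusted p = 0.036), a share of lower calls of 2.27% against 2.54% of all genes. None was higher in limma's test, against 0.121% of all genes, and 1 was higher and 6 were lower at an unadjusted p under 0.05. The share of all genes at that unadjusted level is not given here. All genes leaned lower too, with 356 lower and 17 higher calls after adjustment and a median log2 fold change of -0.059. Gbp9 was not called without Syndecan-2- replicate 1 or 2 or any single Parent library, with adjusted p between 0.065 and 0.16. With the replicate block Gbp7, Ifih1 and Ifitm1 were lower as well, at log2 fold changes of -0.27, -0.45 and -0.39 (adjusted p = 0.037, 0.006 and 0.0016). For 17 of the 20 members called between the sorted populations the Parent mean lay between their means, against 93.9% of the 4205 genes so called, and the exceptions were Oas3, Mx1 and Irf1. The Parent mean was nearer to the Syndecan-2- mean for all 20, against 83.6% of those 4205 genes.

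Of 21 interferon genes, 3 had a listed transcript, Ifng, Ifnk and Ifnz, and none of these had enough expression to be tested. Ifng, for interferon gamma, had 0.054, 0.34 and 0.329 CPM in the Syndecan-2+ libraries, 0, 0 and 0.158 CPM in the Syndecan-2- libraries and 0.129, 0 and 0.0596 CPM in the Parent libraries. The highest of these is a few reads, since 3 reads correspond to 0.146 to 0.194 CPM in these libraries. Ifnk and Ifnz had at most 0.27 and 0.333 CPM in any library, and the other 18 interferon genes were not analysed here.

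Of 8 receptor chains and kinases that carry the signal, 2 were higher in Syndecan-2+ cells and 4 were lower, or 75.0% called, against 30.0% of all genes, and 1 was higher and 4 lower after TMM rescaling. Ifnar2, the high-affinity chain of the type I receptor, had 19.2, 21.7 and 15.6 CPM in the Syndecan-2+ libraries, 51.8, 45.4 and 41.5 CPM in the Syndecan-2- libraries and 42.3, 42.8 and 39.2 CPM in the Parent libraries, with every Syndecan-2+ value below every other and a log2 fold change of -1.26 ± 0.11 (SE; adjusted p = 9.2e-08). Ifnar1, its partner, averaged 24.5 ± 1.57 CPM in Syndecan-2+ and 33.6 ± 2.94 CPM in Syndecan-2- libraries, a log2 fold change of -0.43 ± 0.09 (SE; adjusted p = 9.7e-04). Of the interferon gamma receptor, the signalling chain Ifngr2 averaged 4.69 ± 0.52 CPM in Syndecan-2+ and 10.8 ± 0.832 CPM in Syndecan-2- libraries, a log2 fold change of -1.05 ± 0.13 (SE; adjusted p = 7.1e-06). The ligand-binding chain Ifngr1 averaged 46.1 ± 6.24 CPM in Syndecan-2+ and 48 ± 8.03 CPM in Syndecan-2- libraries, with overlap and an adjusted p of 0.79. Il10rb, a chain shared by the receptors of interferon lambda and interleukin 10, averaged 10.5 ± 0.658 CPM in Syndecan-2+ and 24.1 ± 1.31 CPM in Syndecan-2- libraries, a log2 fold change of -1.13 ± 0.10 (SE; adjusted p = 8.8e-08). The receptor chains called were thus all lower in Syndecan-2+ cells.

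The kinases called were higher. Jak2, which is bound to IFNGR2, had 68, 64.9 and 63.4 CPM in the Syndecan-2+ libraries, 43.2, 35.2 and 41.1 CPM in the Syndecan-2- libraries and 48.5, 41.6 and 46.7 CPM in the Parent libraries, without overlap between the sorted populations, and a log2 fold change of 0.71 ± 0.09 (SE; adjusted p = 5.5e-06). Jak1, which serves both receptor types, averaged 143 ± 5.78 CPM in Syndecan-2+ and 119 ± 5.17 CPM in Syndecan-2- libraries, a log2 fold change of 0.27 ± 0.07 (SE; adjusted p = 0.0049) that was not called after TMM rescaling (adjusted p = 0.087). Tyk2, the partner of IFNAR1, averaged 20.1 ± 0.805 CPM in Syndecan-2+ and 19.9 ± 1.02 CPM in Syndecan-2- libraries (adjusted p = 0.95).

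**Figure D5:**
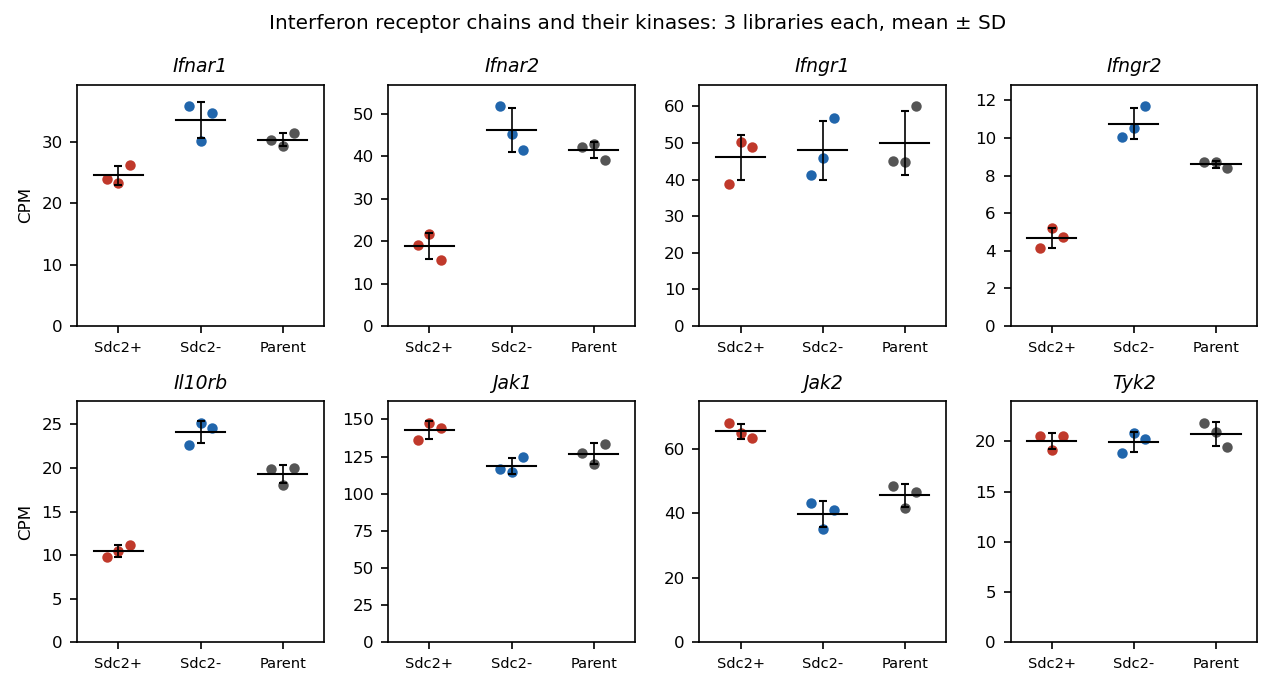
CPM per library of the interferon receptor chains Ifnar1, Ifnar2, Ifngr1, Ifngr2 and Il10rb and of the kinases Jak1, Jak2 and Tyk2 in Syndecan-2+ (red), Syndecan-2- (blue) and Parent (grey) libraries; points are the 3 libraries, lines the mean and bars the SD. Ifnar2, Ifngr2 and Il10rb are lowest in the Syndecan-2+ libraries, Jak2 is highest there, and Ifngr1 and Tyk2 overlap.

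Other regulators of the pathway, 21 genes that are no members, held 8 higher (38.1%) and 4 lower calls (19.0%), against 20.5% and 9.51% of all genes, and 5 higher and 5 lower calls after TMM rescaling. The farthest from 0 was Irf8, which myeloid progenitors, dendritic cells and B cells need, with 8.26, 12.4 and 8.07 CPM in the Syndecan-2+ libraries, 82.3, 73.6 and 72.3 CPM in the Syndecan-2- libraries and 56.6, 59.2 and 56.2 CPM in the Parent libraries and a log2 fold change of -2.89 ± 0.12 (SE; adjusted p = 1.5e-11). Most tested markers of plasmacytoid dendritic cells, conventional dendritic cells, neutrophils and monocytes, and B, T and NK cells, given above, were lower as well, and the part of those cells in Irf8 was not tested. Irf5, a factor downstream of Toll-like receptors, averaged 6.79 ± 1.39 CPM in Syndecan-2+ and 10.5 ± 0.355 CPM in Syndecan-2- libraries (-0.58 ± 0.14 (SE; adjusted p = 0.0037)). Irf2bp2, a corepressor that binds IRF2, averaged 134 ± 13.9 CPM in Syndecan-2+ and 193 ± 33.7 CPM in Syndecan-2- libraries (-0.51 ± 0.12 (SE; adjusted p = 0.0026)), and Sp100, of nuclear bodies, averaged 38.4 ± 2.69 CPM in Syndecan-2+ and 48.6 ± 3.75 CPM in Syndecan-2- libraries (-0.33 ± 0.09 (SE; adjusted p = 0.0088)). Among those that were higher, Batf2, a macrophage factor induced by interferon gamma, averaged 1.65 ± 0.343 CPM in Syndecan-2+ and 0.185 ± 0.121 CPM in Syndecan-2- libraries (1.16 ± 0.21 (SE; adjusted p = 3.2e-04)). Socs3, a feedback inhibitor of cytokine receptors, averaged 41 ± 13.3 CPM in Syndecan-2+ and 22.4 ± 0.754 CPM in Syndecan-2- libraries (0.80 ± 0.16 (SE; adjusted p = 7.2e-04)). Irf4, a factor of plasma cells among others, averaged 3.07 ± 1.04 CPM in Syndecan-2+ and 1.71 ± 0.426 CPM in Syndecan-2- libraries (0.57 ± 0.21 (SE; adjusted p = 0.047)), a call lost under 18 of 22 alternatives, including the omission of Syndecan-2+ replicate 1 (adjusted p = 0.25). Its direction is that of the plasma cell markers, whose part was not tested.

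Further antiviral genes gave calls both ways, with 9 of 55 tested higher (16.4%) and 15 lower (27.3%), against 20.5% and 9.51% of all genes. Slfn2, known in the mouse for keeping T cells and monocytes quiescent, had 11.1, 10.9 and 12.1 CPM in the Syndecan-2+ libraries, 1.8, 2.03 and 3.17 CPM in the Syndecan-2- libraries and 3.77, 3.67 and 5.39 CPM in the Parent libraries, with every Syndecan-2+ value above every other and a log2 fold change of 1.91 ± 0.18 (SE; adjusted p = 2.8e-07). Ifitm7 averaged 1.99 ± 0.44 CPM in Syndecan-2+ and 0.338 ± 0.199 CPM in Syndecan-2- libraries (1.16 ± 0.22 (SE; adjusted p = 5.0e-04)), and Trim30b averaged 4.78 ± 0.629 CPM in Syndecan-2+ and 2.2 ± 0.473 CPM in Syndecan-2- libraries (0.86 ± 0.22 (SE; adjusted p = 0.0056)). Ube2l6, the conjugating enzyme for ISG15, averaged 15.4 ± 1.81 CPM in Syndecan-2+ and 8.4 ± 2.19 CPM in Syndecan-2- libraries (0.82 ± 0.15 (SE; adjusted p = 3.8e-04)). These were higher in Syndecan-2+ cells. On the lower side, Tmem173, which encodes the DNA-sensing adaptor STING, had 11.1, 11.8 and 8.73 CPM in the Syndecan-2+ libraries, 36.8, 40.8 and 37.6 CPM in the Syndecan-2- libraries and 32.7, 27.1 and 34.9 CPM in the Parent libraries, a log2 fold change of -1.78 ± 0.11 (SE; adjusted p = 2.7e-09) without overlap. Ifi27l2a, a relative of Ifi27, averaged 0.326 ± 0.236 CPM in Syndecan-2+ and 2.16 ± 0.288 CPM in Syndecan-2- libraries (-1.26 ± 0.21 (SE; adjusted p = 1.5e-04)), and Rtp4 averaged 6.17 ± 0.346 CPM in Syndecan-2+ and 10.9 ± 1.55 CPM in Syndecan-2- libraries (-0.72 ± 0.15 (SE; adjusted p = 0.0013)). Ifi203, of the family of DNA-binding p200 proteins, averaged 60.04 ± 6.44 CPM in Syndecan-2+ and 91.9 ± 9.85 CPM in Syndecan-2- libraries (-0.61 ± 0.10 (SE; adjusted p = 1.6e-04)).

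The other IRG, GBP and very large GTPases, outside the 9 members, moved both ways. Of 15 tested, 6 were higher (40.0%) and 3 lower (20.0%), against 20.5% and 9.51% of all genes, and 6 were higher and 5 lower after TMM rescaling. Gbp4 averaged 6.67 ± 1.52 CPM in Syndecan-2+ and 1.22 ± 0.434 CPM in Syndecan-2- libraries (1.79 ± 0.24 (SE; adjusted p = 1.8e-05)) and Gbp8 averaged 4.93 ± 0.708 CPM in Syndecan-2+ and 1.18 ± 0.542 CPM in Syndecan-2- libraries (1.47 ± 0.21 (SE; adjusted p = 3.3e-05)). Both lie with Gbp6 and Gbp9 in the cluster on chromosome 5. Gbp5, a promoter of inflammasome assembly named here after its values were seen, lies beside Gbp7 (chr3:142493978-142522344) and averaged 17 ± 1.84 CPM in Syndecan-2+ and 10.7 ± 0.649 CPM in Syndecan-2- libraries (0.62 ± 0.13 (SE; adjusted p = 0.0014)). Of the 4 GBP genes listed in the cluster on chromosome 3, Gbp3 was thus the 1 that was lower. F830016B08Rik averaged 2.54 ± 0.416 CPM in Syndecan-2+ and 0.695 ± 0.0416 CPM in Syndecan-2- libraries (1.06 ± 0.19 (SE; adjusted p = 2.9e-04)). Tgtp1 (Irgb6), an effector IRG with a near copy, averaged 28.4 ± 4.5 CPM in Syndecan-2+ and 15.7 ± 5.98 CPM in Syndecan-2- libraries (0.86 ± 0.26 (SE; adjusted p = 0.016)), a call lost without Syndecan-2+ replicate 3 (adjusted p = 0.064) or Syndecan-2- replicate 1 (0.098). The lower ones were Gm1966, with 28.2, 24.3 and 22.6 CPM in the Syndecan-2+ libraries, 134, 114 and 136 CPM in the Syndecan-2- libraries and 104, 93.1 and 106 CPM in the Parent libraries and a log2 fold change of -2.31 ± 0.09 (SE; adjusted p = 9.5e-12), and 9930111J21Rik1 and 9930111J21Rik2. These averaged 3.98 ± 0.499 CPM in Syndecan-2+ and 14.9 ± 2.14 CPM in Syndecan-2- libraries (-1.68 ± 0.14 (SE; adjusted p = 5.0e-08)) and 9.77 ± 1.16 CPM in Syndecan-2+ and 32.1 ± 2.36 CPM in Syndecan-2- libraries (-1.62 ± 0.11 (SE; adjusted p = 3.3e-09)), and their values may share reads, since the genes are alike.

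Antigen processing and MHC class I genes were mostly higher or uncalled, with 9 of 19 higher (47.4%) and 2 lower (10.5%), against 20.5% and 9.51% of all genes, and with 4 higher and 4 lower after TMM rescaling. Cd274, which encodes the checkpoint ligand PD-L1 and is induced by interferon gamma, had 17.8, 17 and 17.8 CPM in the Syndecan-2+ libraries, 7.68, 8.84 and 12 CPM in the Syndecan-2- libraries and 11.4, 12.5 and 16 CPM in the Parent libraries, without overlap between the sorted populations, and a log2 fold change of 0.84 ± 0.15 (SE; adjusted p = 2.5e-04). The class I genes H2-T24, H2-Q6 and H2-Q7 averaged 11.2 ± 0.476, 113 ± 10.2 and 162 ± 10.7 CPM in Syndecan-2+ libraries, against 7.55 ± 1.2, 83.8 ± 6.22 and 123 ± 8.76 CPM in Syndecan-2- libraries. Their log2 fold changes were 0.52, 0.43 and 0.39 (adjusted p = 0.0051, 2.8e-04 and 4.3e-04), and reads of these near-identical genes may be divided among them. Tap2, a subunit of the peptide transporter, averaged 57.1 ± 1.95 CPM in Syndecan-2+ and 70.3 ± 5.11 CPM in Syndecan-2- libraries and was lower (-0.29 ± 0.07 (SE; adjusted p = 0.0053)). Erap1, which trims peptides, averaged 37.3 ± 3.8 CPM in Syndecan-2+ and 44 ± 0.982 CPM in Syndecan-2- libraries (-0.24 ± 0.09 (SE; adjusted p = 0.0496)), a call lost under 12 of 23 alternatives, with an adjusted p of 0.13 and 0.19 without Syndecan-2+ replicates 2 and 3. Over all 118 pathway genes tested, 34 were higher and 28 lower, or 52.5% called, against 30.0% of all genes.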

How the data were processed

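CPM (read numbers scaled to a common library total) were deposited by the authors for each Ensembl transcript in each of the 9 libraries, per the file headers. Tools listed in the submitters' processing notes are Bowtie2 and STAR, with GRCm38 as the build and no version numbers; how reads were assigned and scaled, and whether strand was used, is not stated in those sources. After subtraction of an offset of 0.0001 CPM, the 58094 transcripts were summed to 20635 gene symbols. The commonest smallest step was 0.0485 to 0.0646 CPM, taken as 1 read, so that 1 CPM is about 15.5 to 20.6 reads, and listed transcripts add up to 51.5 to 54.5% of the full CPM scale. Values were fractions of reads, so the count test foreseen for raw counts was not used.

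The 13997 genes that reached 1 CPM in 3 or more libraries were fitted with limma 3.58.1 in R 4.3.3 on log2(CPM + 1), all 9 libraries in 1 fit with an intensity trend, and p-values were adjusted by Benjamini-Hochberg over all genes at a threshold of 0.05. A fold change on this scale understates that of low genes. Deviations of same-numbered libraries from their group means correlated at r = 0.117 to 0.259 in all 9 pairs across populations, and those of other pairs at -0.206 to 0.00483 (18 pairs). Deviations within a group sum to 0, so these ranges are not independent. Same-numbered libraries thus resembled each other, and the origin of this pairing is not given in the labels. The main fit left the pairing out. The fit with replicate number as a block was an alternative, with 14 members higher and 11 lower between the sorted populations. Over all genes, that fit gave 3434 higher and 1551 lower calls, against 2874 and 1331 in the main fit. Other alternatives were the pseudocount, the filter, rescaling by the trimmed mean of M-values (TMM), quantile normalization, equal sums, no trend, the 6 libraries compared, and each library left out; leaving out each replicate number from every population was chosen after seeing the data. The 44 members and all lists were chosen with earlier results of these data known. All 44 are named, values per library are given for members called between the sorted populations and for the highest of each role, and of each pathway list the 4 called genes farthest from 0 in each direction are named, with the ligands and receptors; some genes that this rule selects are not reported here. Lengths came from GENCODE M21 (149 of 151 member transcripts). Figures were drawn with matplotlib 3.10.9.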

Additional observations from a re-analysis of the deposited data

How the results depend on the processing

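Between Syndecan-2+ and Syndecan-2- cells, 16 of the 20 called members passed the threshold under each of the 23 alternatives in which they could be tested; Irgm2, Oas3, Irf1 and Isg20 did not. The lower count of 9 became 15 after quantile normalization and 15 with the replicate block and TMM rescaling, and ran from 8 to 9 with single libraries left out, while the higher count of 11 ran from 10 to 11. Over all genes, the lower count of 1331 became 1874 after quantile normalization and 2293 with the replicate block and TMM rescaling. With the replicate block alone the counts were 14 higher and 11 lower, and the block changed no other call of a named gene than those given with the results. Over all genes, the block alone gave 3434 higher and 1551 lower calls, against 2874 and 1331 in the main fit. Between Syndecan-2+ and Parent cells, the higher count of 9 ran from 7 to 9 with single libraries left out and was 5 without replicate 3 of every population. Over all genes, the higher count fell from 1386 to 738 without replicate 3 of every population. The lower count of 10 ran from 6 to 10, with 6 when replicate 1 or 3 of Syndecan-2+ or replicate 3 of Parent was left out, and was also 6 without the trend and without any one replicate number of every population. Over all genes, the lower count of 1023 was 887 without the trend. It was 690, 810 and 633 without replicates 1, 2 and 3 of every population. Between Syndecan-2- and Parent cells, the lower count of 1 was 0 with a pseudocount of 5 CPM, no filter, a minimum of 10 CPM, TMM rescaling, quantile normalization, equal sums, no trend, only the 6 libraries compared, and without replicate 1 or 2 of every population. It was 4 with the block, 3 with the block and TMM rescaling, and 0 to 2 with single libraries left out, and 1 member was higher with the block and TMM rescaling. Over all genes, the lower count of 356 became 613 with the block and 437 with the block and TMM rescaling. It was 267 after TMM rescaling alone and 145 without replicate 1 of every population. The cause of these shifts was not tested.

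The log2 fold changes of Syndecan-2+ over Syndecan-2- cells that changed sign belonged to uncalled genes near 0, and the cause was not tested. After TMM rescaling, with or without the replicate block, they were -0.061 for Ifit3, -0.0997 for Ifi44, -0.0199 for Stat2, -0.021 for Ddx58 and -0.10 for Tyk2. After quantile normalization they were -0.17 for Ifit3, -0.14 for Ifi44, -0.036 for Stat2, -0.014 for Ddx58, -0.022 for Igtp and -0.10 for Tyk2. With equal sums they were -0.033 for Ifit3, -0.053 for Ifi44 and -0.053 for Tyk2, and with a pseudocount of 0.1 CPM the value of Ifit3 was -0.000341. Without replicate 1 of every population they were 0.12 for Irgm1 and -0.047 for Tyk2. Without replicate 2 they were -0.023 for Ifit3, -0.0895 for Ifi44, -0.016 for Stat2 and 0.0675 for Irgm1, and without replicate 3 they were 0.0905 for Ifi35, -0.0063 for Stat2 and 0.025 for Ifngr1. With single libraries left out they ran from -0.24 to 0.25 for Ifit3, -0.0738 to 0.0752 for Ifi35, -0.18 to 0.19 for Ifi44, -0.0297 to 0.22 for Stat2, -0.13 to 0.0641 for Irgm1, -0.16 to 0.0715 for Ifngr1 and -0.0299 to 0.0416 for Tyk2. Depth limits the precision of low genes such as Ifit3, at about 15.5 to 20.6 reads per CPM.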
